A study of Mus musculus with 4 samples.

Results

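Oxidative phosphorylation is the final step of fuel use in mitochondria. Complexes I to IV pass electrons from NADH and succinate to oxygen and pump protons across the inner membrane, and complex V, the ATP synthase, uses the proton gradient to make ATP. Most subunits are encoded in the nucleus. Sensory neurons of the dorsal root ganglion, whose long axons depend on a steady ATP supply, hold many mitochondria, and muscle fibres are known for a high oxidative capacity.

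The genes described here are those whose platform gene symbol starts with Nduf, Uqcr, Cox4 to Cox8 or Atp5, or is Sdha, Sdhb, Sdhc or Sdhd. They were taken from every probe set with exactly 1 such symbol, and each gene was represented by its brightest probe set, by mean intensity over the 4 arrays. The rule found 179 of 45101 probe sets and 90 of the 18193 genes that have a probe set with 1 symbol. By complex these were 34 genes of complex I, 4 of complex II, 8 of complex III, 19 of complex IV and 17 of complex V, with 8 assembly factors of complex I, which help to build it but are not part of it. Ndufa4 was counted with complex IV, of which its product is now known to be a subunit, together with its relative Ndufa4l2. A further 10 probe sets that carry such a symbol beside others were left out.

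The study used 4 Affymetrix arrays, each with total RNA of fresh dorsal root ganglia of mice. These ganglia lie beside the spinal cord and hold the cell bodies of sensory neurons. There were 2 arrays of ganglia from one level, called the sample-2 level, and 2 of ganglia from the other level, called the sample-1 level. The labels name neither the levels nor the strain, age or sex, and no label ties arrays to animals. Any p-value here thus rests on array-to-array spread alone, and that spread may be technical. Values are the authors' deposited intensities on a linear scale, scaled so that all arrays share a common trimmed mean of 150. Their medians lay between 25.9 and 27.3. Each difference is therefore relative to the other RNA on the array, and fewer cells of a type and less RNA per cell cannot be told apart. Markers of dorsal root ganglion neurons were bright on every array, with Prph at 6236 and 5829 on the sample-2 arrays and 5658 and 5712 on the sample-1 arrays.

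Complex IV has subunits with a ubiquitous and a muscle isoform. As examples, the 250 bases before the RefSeq start are printed from the RefSeq promoter table of GRCm38.p6. The genes are 2 ubiquitous ones, Cox6a1 and Cox8a, and the muscle gene Cox8b, partner of Cox8a. Capitals mark, in Cox6a1, first the core site of NRF1, an activator of respiratory chain genes, which reads the same on both strands, and then that of ETS factors (CCGGAAG, here on the other strand).
Cox6a1, chr5:115348959-115349208, minus strand: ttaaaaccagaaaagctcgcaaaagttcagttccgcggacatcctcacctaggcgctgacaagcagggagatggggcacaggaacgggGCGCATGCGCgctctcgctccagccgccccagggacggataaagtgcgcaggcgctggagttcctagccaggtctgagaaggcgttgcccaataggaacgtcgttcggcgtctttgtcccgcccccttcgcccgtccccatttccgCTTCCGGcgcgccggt
Cox8a, chr19:7217617-7217866, minus strand: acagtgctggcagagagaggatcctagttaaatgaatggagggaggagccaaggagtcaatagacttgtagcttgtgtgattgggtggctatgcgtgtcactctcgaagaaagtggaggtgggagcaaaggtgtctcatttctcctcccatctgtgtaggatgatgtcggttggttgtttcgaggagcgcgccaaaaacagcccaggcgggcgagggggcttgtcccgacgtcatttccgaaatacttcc
Cox8b, chr7:140900447-140900696, minus strand: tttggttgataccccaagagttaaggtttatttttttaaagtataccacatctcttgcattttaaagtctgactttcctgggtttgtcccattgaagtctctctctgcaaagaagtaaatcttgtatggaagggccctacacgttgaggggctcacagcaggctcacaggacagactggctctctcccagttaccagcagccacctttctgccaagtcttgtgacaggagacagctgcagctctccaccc

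The Cox6a1 window held 26 CpG dinucleotides, that of Cox8a 11 and that of Cox8b 1. In Cox6a1 the NRF1 core began 162 bases and the ETS core 16 bases before the start, and neither other window held a searched motif. Of the pair that is not printed, the muscle gene Cox7a1 had 4 CpG and the ubiquitous Cox7a2 14, and neither held a searched motif. Of the 90 genes 74 had an entry in the table, with a median of 15.0 CpG and 57.6% GC, against 15.0 CpG and 59.6% GC for the 10867 tested genes with an entry. On either strand the NRF1 core stood in 4 of the 74 genes (5.41%), against 1.73% of the tested genes, and the ETS core in 14 (18.9%), against 14.1%. The element of the estrogen-related receptors (TCAAGGTCA) stood in 1 gene, Atp5g3 (1.35%, against 0.331%), and the YY1 site (AAGATGGCG) in 1, Atp5j (1.35%, against 1.25%). These matches describe the sequences only.

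Most oxidative phosphorylation genes measured slightly lower at the sample-2 level, none past the threshold. Of the 90 genes 88 passed the filter on low signal, and 79 of these (89.8%) had a fitted difference below 0, against 51.2% of all genes tested. The median difference on the log2(intensity + 16) scale, sample-2 minus sample-1 level, was -0.12, a ratio of 0.922, against -0.0058 for all 13543 genes tested. With limma, 0 of the 88 passed a Benjamini-Hochberg adjusted p of 0.05, where 0.857% of all genes tested did, and the lowest adjusted p was 0.0879. At an unadjusted p under 0.05, 20 of the 88 (22.7%) were lower and 0 higher, against 6.64% lower and 5.75% higher over all genes. Both sample-2 arrays lay below both sample-1 arrays for 59 of the 88 (67.0%), against 22.3% of all genes, and above them for 2 (2.27%), against 20.5%.

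A count over bright genes alone was added after seeing the data. Among the 69 oxidative phosphorylation genes with a mean intensity of at least 1000, the median difference was -0.12 and 62 lay below 0. Among all 1374 tested genes that bright, the median was 0.0043 and 48.0% lay below 0. No set was tested, because the genes of a list are not replicates.

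The arrays of a level were not alike in these genes. Relative to each gene's mean over the 4 arrays, the median of the 88 genes was -0.07 and -0.04 on sample-2 arrays 1 and 2, and 0.02 and 0.08 on sample-1 arrays 1 and 2 (log2 scale). Sample-1 array 2 was thus the highest array. It held the highest value for 66 of the 88 genes, against 3801 of all 13543 genes tested. Without it the median difference was -0.08 and 70 of 86 tested genes lay below 0. That fit has 1 array at the sample-1 level, and the share of all genes below 0 was not counted in it. Leaving out each of the other arrays gave a median between -0.09 and -0.15.

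**Figure D1:**
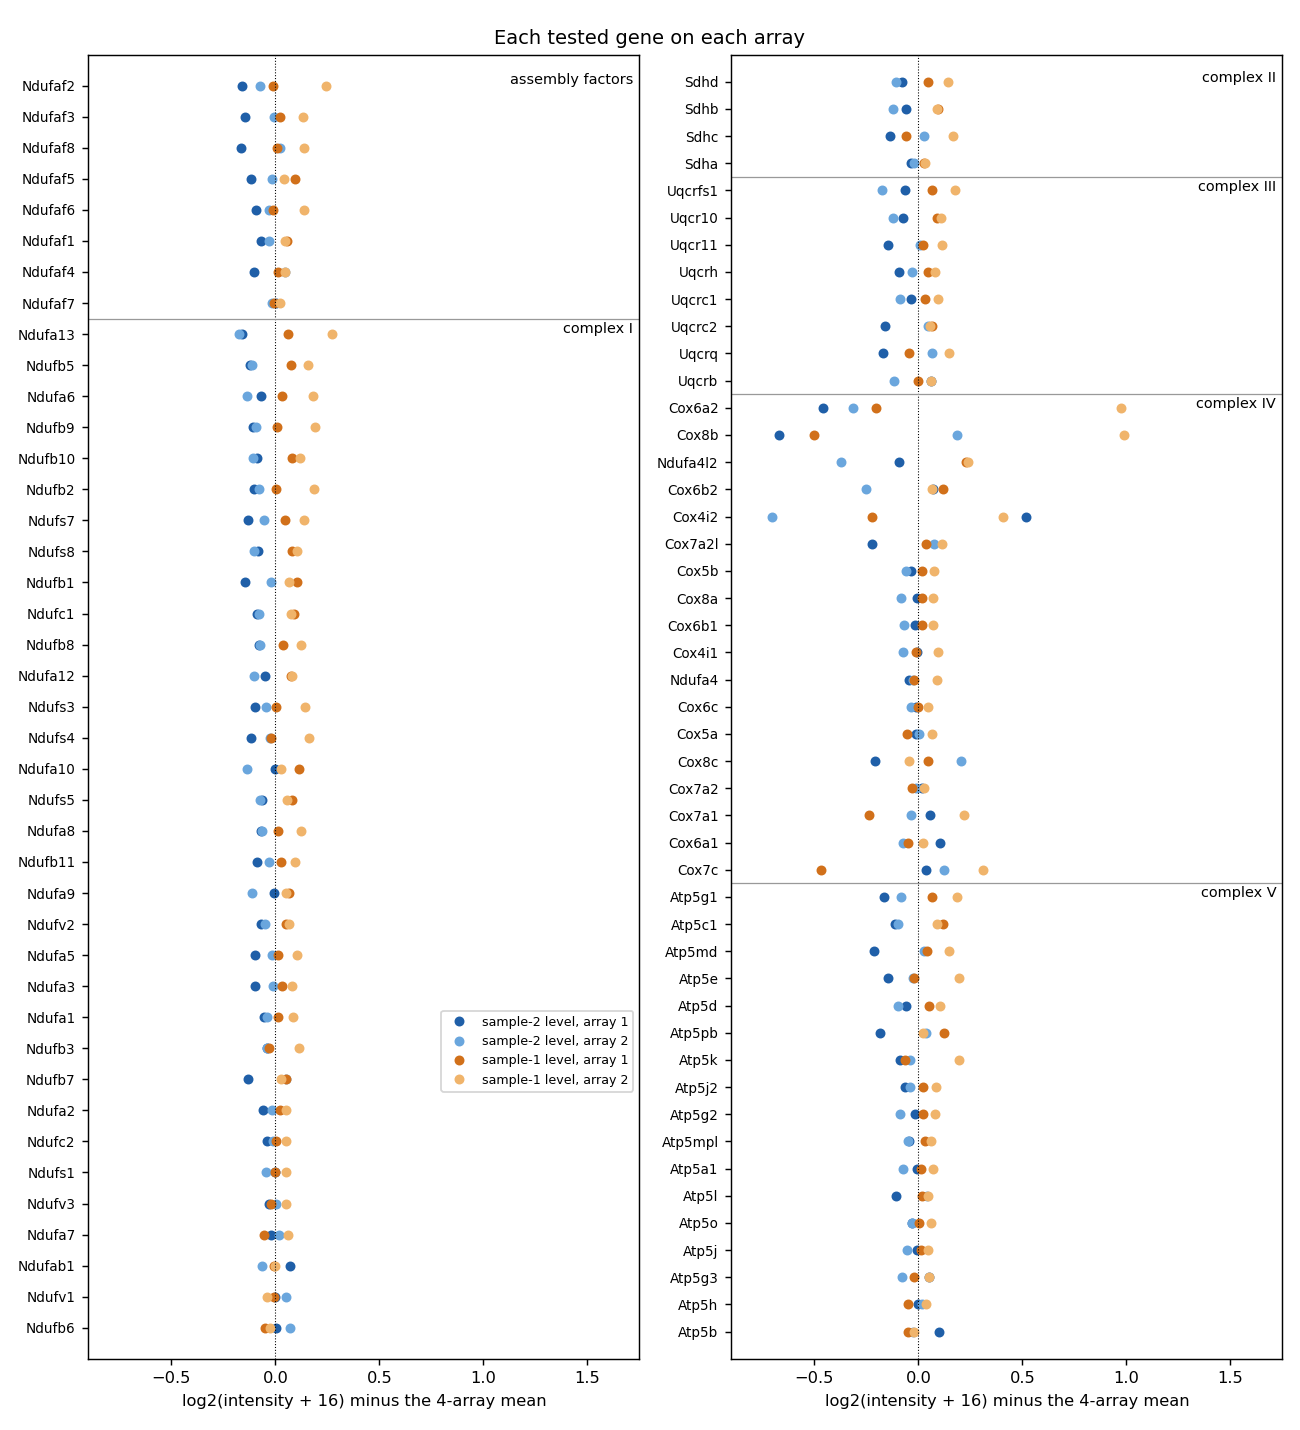
Each of the 88 tested oxidative phosphorylation genes on each array, as log2(intensity + 16) minus the gene's mean over the 4 arrays (horizontal axis), with genes ordered within each complex by their fitted difference. Sample-2 arrays (blue) lie left of both sample-1 arrays (orange) for 59 genes (67.0%, against 22.3% of all genes). Sample-1 array 2 (pale orange) is the highest for 66, against 3801 of all 13543 genes tested.

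Sample-1 array 2 also carried the most signal from skeletal muscle. The summed intensity of 19 muscle fibre markers was 2625 and 1753 on the sample-2 arrays, and 2227 and 11250 on sample-1 arrays 1 and 2. All 19 were higher on sample-1 array 2 than on sample-1 array 1, with a median log2 difference of 2.07. Over all 13543 genes tested 7000 were, with a median of 0.0078. Between levels all 19 lay below 0, against 51.2% of all genes. At an unadjusted p under 0.05 (limma) 11 (57.9%) were lower, against 6.64%. The myosin heavy chain gene Myh2 alone was lower past the threshold, where 0.561% of all genes were. Its values were 2.16 and 11.7 on the sample-2 arrays, under the filter intensity of 14.3, against 42.8 and 120 on the sample-1 arrays. Myh2 thus passed the filter only through the sample-1 level. Des, also among the 11, measured 5.95 and 24.8, against 26.6 and 63.8. Neb, another of them, measured 17.2 and 9.68, against 18.1 and 60.7. Each of these thus had a sample-2 array under the filter intensity. The summed intensities of the other lists follow. The sum of the 9 tested fibroblast and meningeal markers was 8469 and 7974 on the sample-2 arrays, against 14730 and 12860 on the sample-1 arrays, with 6 lower past the threshold, where 0.561% of all genes were. That of 7 Schwann cell and myelin markers was 20320 and 15790, against 21940 and 20010, with 0 past the threshold (limma). At an unadjusted p under 0.05, 4 of them (57.1%) were lower, against 6.64% of all genes. That of 7 neutrophil markers was 6362 and 8038, against 3149 and 3796, with 5 higher past it, where 0.295% of all genes were. The 8 tested neuronal markers summed to 31070 and 28100 on the sample-2 arrays and 28990 and 29800 on the sample-1 arrays. With limma 0 of these 8 passed. At an unadjusted p under 0.05, 1 was higher and 1 lower (12.5%), against 5.75% and 6.64% of all genes. The 6 tested fat markers summed to 347 and 345 on the sample-2 arrays, against 302 and 359 on the sample-1 arrays, with 0 past the threshold by limma. At an unadjusted p under 0.05, 1 of these 6 was higher and 1 lower (16.7%), against the same shares of all genes. The lower one, Retn, measured 9.73 and 3.28 on the sample-2 arrays, against 28.75 and 29.15 on the sample-1 arrays. It passed the filter only through the sample-1 level. The brown fat protein Ucp1 lay between 1.14 and 6.04 on the 4 arrays, and of the heart markers 5 of 6 lay below the filter. Red cell markers rested on 2 tested genes, of which Slc4a1 was higher past the threshold, where 0.295% of all genes were. The part of these cells in the oxidative phosphorylation values was not tested.

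Complex I, the NADH dehydrogenase, had 33 tested genes with a median difference of -0.13, and 30 lay below 0. In 27 of the 33 (81.8%) both sample-2 arrays lay below both sample-1 arrays, against 22.3% of all genes. Ndufa13, an accessory subunit also known as GRIM-19, had the largest difference of the complex. It measured 3113 and 3082 on the sample-2 arrays, against 3624 and 4207 on the sample-1 arrays, a difference of -0.33 ± 0.08 (log2 ± SE, limma, adjusted p = 0.0879). The groups did not overlap, and sample-1 array 2 stood highest. Its probe set ends in _s_at, a suffix for probes that can match more than 1 transcript. Ndufb5, an accessory subunit of the membrane arm, measured 1761 and 1775 at the sample-2 level, against 2023 and 2142 at the sample-1 level (-0.23 ± 0.07, limma, adjusted p = 0.220). The arrays of each level lay close together and apart from the other level.

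Among the 6 tested core subunits of complex I, 5 lay below 0. Ndufs8, an iron-sulfur subunit, measured 3480 and 3439 at the sample-2 level, against 3903 and 3964 at the sample-1 level. Both sample-2 arrays were lower on this probe set, but others of the gene with similar brightness lay above 0 and overlapped between levels. They measured 3548 and 3381, against 3435 and 3462 (0.006), and 3335 and 4138, against 3778 and 3072 (0.12). Ndufs1, the largest iron-sulfur subunit, measured 1128 and 1096, against 1131 and 1170. Ndufv1, which binds NADH and the flavin, measured 1863 and 1930 at the sample-2 level, against 1851 and 1808, a difference of 0.05 ± 0.07 (limma, adjusted p = 0.855). It was 1 of the 2 genes whose sample-2 arrays both lay above the sample-1 arrays. The other was Ndufb6, an accessory subunit, at 3463 and 3624, against 3336 and 3395 (0.07 ± 0.06, limma, adjusted p = 0.746). Their dimmer probe sets lay on the other side of 0, at -0.05 and -0.15 for Ndufv1 and at -0.07 for Ndufb6, where both sample-2 arrays lay below both sample-1 arrays. Ndufab1, the acyl carrier protein of mitochondria, measured 2719 and 2481, against 2582 and 2592, and its groups overlapped. The other genes of the complex differed by -0.21 to -0.0042. Ndufb4 had only a probe set under the filter, at 0.535 to 17.5.

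All 8 assembly factors of complex I, Ndufaf1 to Ndufaf8, lay below 0, from -0.23 for Ndufaf2 to -0.01 for Ndufaf7, with a median of -0.13. In 5 of them both sample-2 arrays lay below both sample-1 arrays, against 22.3% of all genes. By limma 0 passed the threshold and 0 had an unadjusted p under 0.05, where 6.64% of all genes were lower at that level.

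Complex II, the succinate dehydrogenase that also works in the tricarboxylic acid cycle, has 4 nuclear genes, and all lay below 0. Sdhb, the iron-sulfur subunit, measured 2420 and 2322 on the sample-2 arrays, against 2696 and 2685 on the sample-1 arrays, a difference of -0.18 ± 0.07 (limma, adjusted p = 0.331). Sdhd, a membrane anchor, measured 998 and 979, against 1088 and 1164 (-0.18 ± 0.08, limma, adjusted p = 0.442). In both genes the levels were apart by more than the arrays of a level. Sdha, the flavoprotein, measured 1906 and 1924 at the sample-2 level, against 1993 and 1997 at the sample-1 level. Sdhc, the other anchor, measured 883 and 991, against 932 and 1091, and overlapped. The second tested probe sets of Sdhd and Sdhc, both dimmer, lay on the other side of 0, at 0.41 and 0.39.

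Complex III passes electrons from ubiquinol to cytochrome c, and all 8 of its genes under the name rule lay below 0, with a median of -0.13. Its subunit gene Cyc1 falls outside that rule and is given below with the electron carriers. Uqcrfs1, the Rieske iron-sulfur protein at its catalytic centre, measured 1495 and 1384 at the sample-2 level, against 1635 and 1772 at the sample-1 level (-0.24 ± 0.08, limma, adjusted p = 0.260). Uqcr10, a small accessory subunit, measured 1289 and 1248, against 1448 and 1469 (-0.20 ± 0.08, limma, adjusted p = 0.345). Its other tested probe sets gave -0.30 and -0.35. All 3 probe sets of Uqcr10 thus pointed the same way. Uqcrc1, a core subunit, measured 2094 and 2013, against 2190 and 2289. Uqcrb, a ubiquinone-binding subunit, measured 7737 and 6842, against 7411 and 7740, and Uqcrq, an accessory subunit, 1497 and 1765, against 1632 and 1870. The last 2 overlapped between levels and had the smallest differences of the complex. A dim second probe set of Uqcrq lay on the other side of 0, at 38.9 and 29.1, against 18.7 and 27.7 (0.35). There both sample-2 arrays lay above both sample-1 arrays.

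Complex V had 17 tested genes with a median of -0.10, of which 15 lay below 0. Atp5g1, one of the genes for subunit c of the rotating ring, measured 1825 and 1931 at the sample-2 level, against 2141 and 2330 at the sample-1 level (-0.25 ± 0.08, limma, adjusted p = 0.211). Subunit c has 3 genes that encode the same mature protein. Atp5g2 measured 1318 and 1252, against 1354 and 1409, with the levels apart. Atp5g3 measured 5363 and 4903, against 5090 and 5351, with the levels overlapping.

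In the F1 head of complex V, which holds the catalytic sites, 4 of 5 tested genes lay below 0. Both sample-2 arrays lay below both sample-1 arrays in 4 (80.0%), against 22.3% of all genes. Atp5c1, the central stalk subunit gamma, measured 3451 and 3495 at the sample-2 level, against 4062 and 3981 at the sample-1 level (-0.21 ± 0.06, limma, adjusted p = 0.198). Atp5a1, subunit alpha, measured 3089 and 2952, against 3130 and 3264. Atp5b, the catalytic subunit beta, measured 5064 and 4638, against 4567 and 4664 (0.07 ± 0.07, limma, adjusted p = 0.764). By their brightest probe sets alpha and gamma were thus lower on both sample-2 arrays, while beta overlapped. The other tested probe sets of Atp5a1 differed by -0.02 and, for a dim one, 0.04, and both overlapped between levels. Atp5h, subunit d of the peripheral stalk, overlapped too, at 4489 and 4542, against 4331 and 4609. Atp5j2, subunit f, measured 3714 and 3765, against 3938 and 4111, but a dim probe set of the same gene, at 19.3 and 49.5, against 14.2 and 9.47, gave a difference of 0.79.

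**Figure D2:**
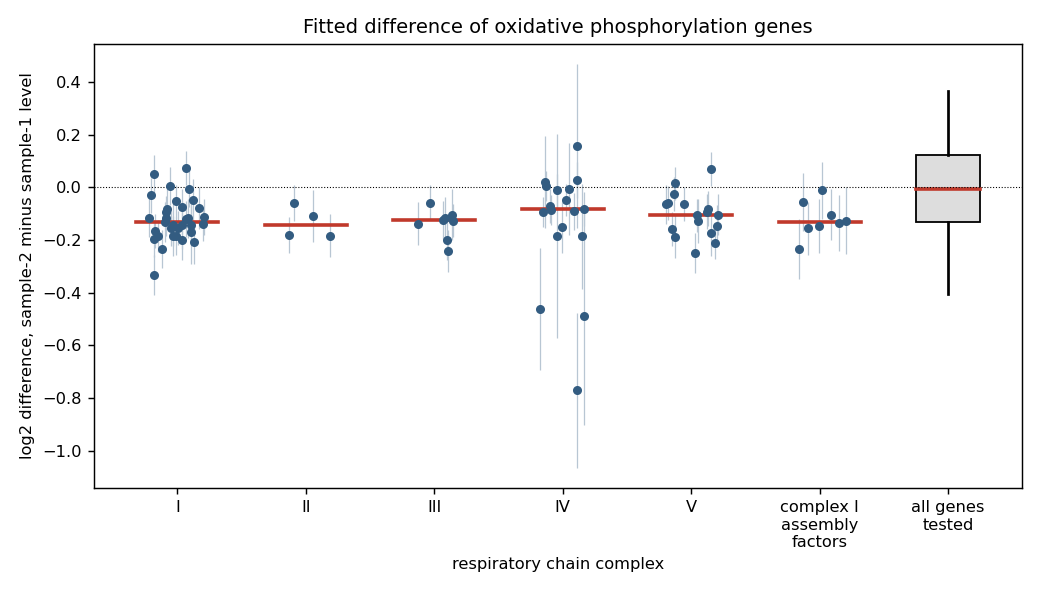
Fitted log2 difference, sample-2 minus sample-1 level, of each tested gene by complex (points, with SE bars) and the median of each complex (red lines), beside all 13543 genes tested (box, 25th to 75th percentile, and whiskers, 5th to 95th). The medians of the complexes lie between -0.14 and -0.08, and the median of all genes at -0.0058.

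Complex IV, cytochrome c oxidase, had the median nearest 0. Its differences had an SD of 0.29 over the 7 tested tissue isoforms, which were dim, and of 0.07 over the 6 ubiquitous isoforms, against 0.08 over complex I. Its 18 tested genes had a median of -0.08, 14 lay below 0, and 7 (38.9%) were lower on both sample-2 arrays, against 22.3% of all genes. The single-isoform and ubiquitous subunits other than Cox7c were bright on all arrays. Cox4i1, the ubiquitous regulatory subunit 4, measured 4704 and 4497 at the sample-2 level, against 4691 and 5048 at the sample-1 level. Cox5a measured 5419 and 5470, against 5268 and 5718, and Cox6b1 6679 and 6452, against 6850 and 7093. Only Cox6b1 of these 3 had its levels apart. Ndufa4 measured 4169 and 4220, against 4242 and 4580, also apart. Cox7a2l, a factor that helps join complexes III and IV into supercomplexes, measured 1410 and 1737, against 1695 and 1786, and overlapped.

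The muscle isoforms of complex IV were highest on sample-1 array 2. Cox6a2, the heart and skeletal muscle form of subunit 6a, measured 44.8 and 51.1 on the sample-2 arrays, against 56.5 and 148 on sample-1 arrays 1 and 2. Cox8b, the muscle form of subunit 8, measured 12.0 and 34.7, against 15.6 and 72.6. Both were highest on the array with the most muscle signal. The other sample-1 array lay near the sample-2 arrays for Cox6a2. For Cox8b it lay between sample-2 arrays that were far apart, and its 12.0 and 15.6 lay near the filter intensity of 14.3. Of the sample-2 arrays, array 2 had the higher value of both genes but the lower sum of muscle markers (1753, against 2625). Cox7a1, the muscle form of subunit 7a, measured 94.0 and 87.0, against 73.5 and 107, with the sample-2 arrays between the sample-1 arrays. The fitted differences were -0.77 ± 0.29 for Cox6a2 (limma, adjusted p = 0.343), -0.49 ± 0.42 for Cox8b (limma, adjusted p = 0.739) and 0.02 ± 0.18 for Cox7a1 (limma, adjusted p = 0.983). Without sample-1 array 2 the difference of Cox6a2 was -0.18 and that of Cox8b 0.26. Without sample-1 array 1, which leaves the muscle-rich array alone at its level, Cox6a2 was lower past the threshold at -1.36 (limma, adjusted p = 0.0102), a fit that takes the lone array to vary like the others.

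Their ubiquitous partners showed no such step. Cox6a1 measured 7258 and 6426 at the sample-2 level, against 6523 and 6878 at the sample-1 level, Cox8a 2370 and 2253, against 2416 and 2507, and Cox7a2 7022 and 6880, against 6781 and 7053. The log2 ratio of Cox6a2 to Cox6a1 within each array, relative to its 4-array mean, was -0.56 and -0.24 on the sample-2 arrays, and -0.15 and 0.95 on sample-1 arrays 1 and 2. For Cox8b over Cox8a it was -0.66 and 0.27, against -0.52 and 0.92, and for Cox7a1 over Cox7a2 0.04 and -0.03, against -0.21 and 0.19. In all 3 pairs sample-1 array 2 had the highest ratio. An exact two-sided permutation test over 4 arrays cannot give a p under 0.333, and gave 0.333, 0.667 and 1.0 for the pairs in that order.

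**Figure D3:**
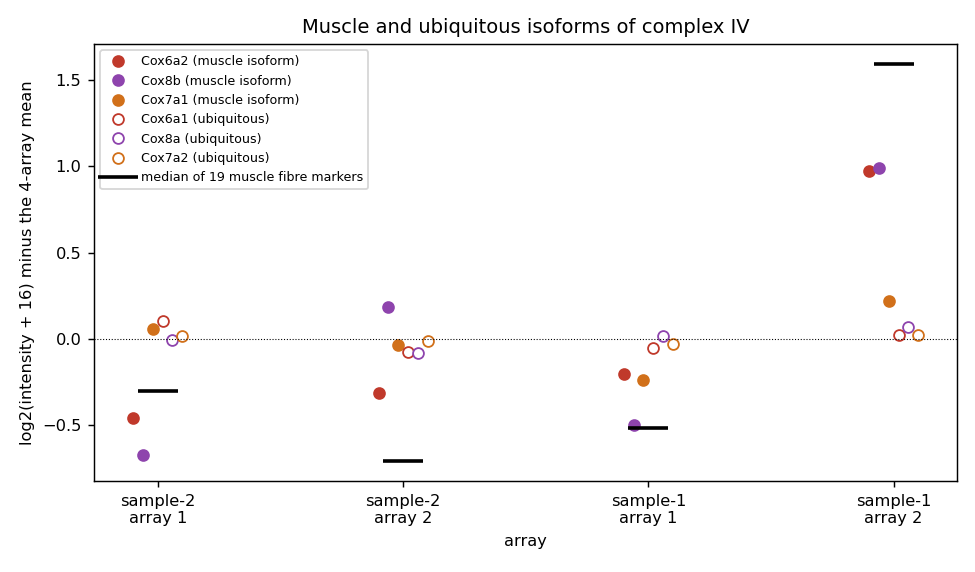
Muscle isoforms (filled circles) and ubiquitous partners (open circles) of 3 complex IV subunits on each array, as log2(intensity + 16) minus the gene's 4-array mean, with the median of 19 muscle fibre markers (black bars). On sample-1 array 2 the muscle markers had a median of 1.60 and the ratio of Cox6a2 to Cox6a1 stood 0.95 above its mean, while the 3 ubiquitous genes stayed near 0.

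The remaining isoforms of complex IV were dim, and the values come without detection calls. Ndufa4l2, a relative of Ndufa4 that is induced by hypoxia, measured 23.6 and 16.6 at the sample-2 level, against 33.3 and 33.6 at the sample-1 level (-0.46 ± 0.23, limma, adjusted p = 0.505). Cox4i2, the lung and hypoxia form of subunit 4, measured 28.4 and 3.08, against 10.6 and 25.2, so arrays of 1 level spanned the whole range. The testis forms Cox6b2, at 47.2 and 34.6, against 49.5 and 47.1, and Cox8c, at 70.5 and 99.5, against 87.4 and 81.1, overlapped as well. Cox7b2, another testis form, lay under the filter at 0.839 to 11.6. Cox7c, a single-isoform subunit, was represented by a dim probe set, at 15.7 and 17.6, against 6.33 and 22.4, and its fitted difference of 0.16 ± 0.31 (limma, adjusted p = 0.910) was the highest of all 88 genes.

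Different probe sets of a gene mostly pointed the same way. Of 158 tested probe sets 138 lay below 0, against 48.9% of all probe sets tested. By limma 0 of the 158 passed the threshold, where 0.622% of all probe sets did. Of the 46 genes with more than 1 tested probe set, all probe sets lay below 0 in 32 and in no gene did all lie above 0. In 4 genes, Atp5j2, Ndufab1, Ndufs8 and Sdhd, the probe sets differed by more than 0.5. The 6 probe sets of Ndufs8 ranged from -0.23 to 0.33, with 3 below 0.

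Other genes of energy metabolism were counted in lists, against 0.857% of all genes past the threshold and, at an unadjusted p under 0.05, 6.64% lower and 5.75% higher. Of 17 tested genes of the tricarboxylic acid cycle and pyruvate dehydrogenase, 15 lay below 0, with a median of -0.07, and 0 passed with limma, where 1 (5.88%) was lower at an unadjusted p under 0.05. The largest differences were those of Idh3g, an isocitrate dehydrogenase subunit, at 1108 and 1181, against 1313 and 1282, and Pdhb, a pyruvate dehydrogenase subunit, at 2282 and 2564, against 2769 and 2544. The second of these overlapped. Of 31 genes listed as assembly factors outside the name rule 21 lay below 0, with a median of -0.07. With limma 0 passed, where 4 (12.9%) were lower and 1 higher at an unadjusted p under 0.05. The list includes Atpif1 (-0.04), which encodes an inhibitor of complex V rather than an assembly factor. Oxa1l, an insertase of the inner membrane, measured 92.5 and 130, against 156 and 145, and Atpaf1, an assembly factor of complex V, 357 and 326, against 438 and 464. Of 14 glycolytic genes 7 lay below 0, with a median of 0.0042, and 0 passed with limma, where 2 (14.3%) were lower and 1 higher at an unadjusted p under 0.05. Eno3, the muscle enolase, measured 177 and 171, against 126 and 470, with its highest value on sample-1 array 2. Ldhb, the lactate dehydrogenase subunit of oxidative tissues, measured 2048 and 1885, against 2427 and 2525 (-0.33 ± 0.07, limma, adjusted p = 0.0774).

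Of 13 tested electron carriers and transporters 9 lay below 0, with a median of -0.10, and 0 passed with limma, where 3 (23.1%) were lower and 1 higher at an unadjusted p under 0.05, against 6.64% and 5.75% of all genes. Ckmt2, the mitochondrial creatine kinase of striated muscle, measured 25.5 and 25.1 at the sample-2 level, against 50.6 and 75.5 at the sample-1 level (-0.92 ± 0.21, limma, adjusted p = 0.0925). Slc25a5, an ADP/ATP carrier, measured 2464 and 2376, against 2710 and 2962. ND5, a complex I subunit encoded in mitochondrial DNA and the 1 such gene with a symbol matched here, ran the other way, at 4492 and 4803, against 4218 and 3776 (0.22 ± 0.07, limma, adjusted p = 0.252). Both its sample-2 arrays lay above both its sample-1 arrays. The difference was 0.14 without sample-1 array 2 and at most 0.30 with another array left out. Cyc1, the cytochrome c1 subunit of complex III, and Cycs, cytochrome c, were chosen for mention after their values were seen. Cyc1 measured 1851 and 2020, against 2187 and 2326, and Cycs 5420 and 5604, against 4921 and 5101, so the subunit lay lower and its mobile electron acceptor higher on both sample-2 arrays, neither past the threshold (limma, adjusted p = 0.281 and 0.436).

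Among 19 regulators of mitochondrial biogenesis 1, Esrrg, fell past the threshold, where 0.561% of all genes did. At an unadjusted p under 0.05, 4 (21.1%) were lower and 0 higher, against 6.64% and 5.75% of all genes. Esrrg encodes an estrogen-related receptor that activates genes of oxidative metabolism. It measured 112 and 123 at the sample-2 level, against 218 and 243 at the sample-1 level, a difference of -0.88 ± 0.13 (limma, adjusted p = 0.0121). The levels were far apart. Its other tested probe set differed by -0.56 ± 0.29 (limma, adjusted p = 0.534), and the call was lost without sample-1 array 2 (-0.81, limma, adjusted p = 0.0577). It was also lost with no filter, with no intensity trend and with the mean of its probe sets. Ppargc1a, the coactivator that works with this receptor, was chosen for mention after its values were seen, at 157 and 156, against 235 and 206 (-0.45 ± 0.13, limma, adjusted p = 0.160). Nrf1 measured 40.3 and 44.1, against 43.9 and 43.9, and Tfam, the mitochondrial transcription factor, 197 and 223, against 192 and 227, with overlapping levels in both. The 19 genes had a median of -0.03, with 11 below 0.

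**Figure D4:**
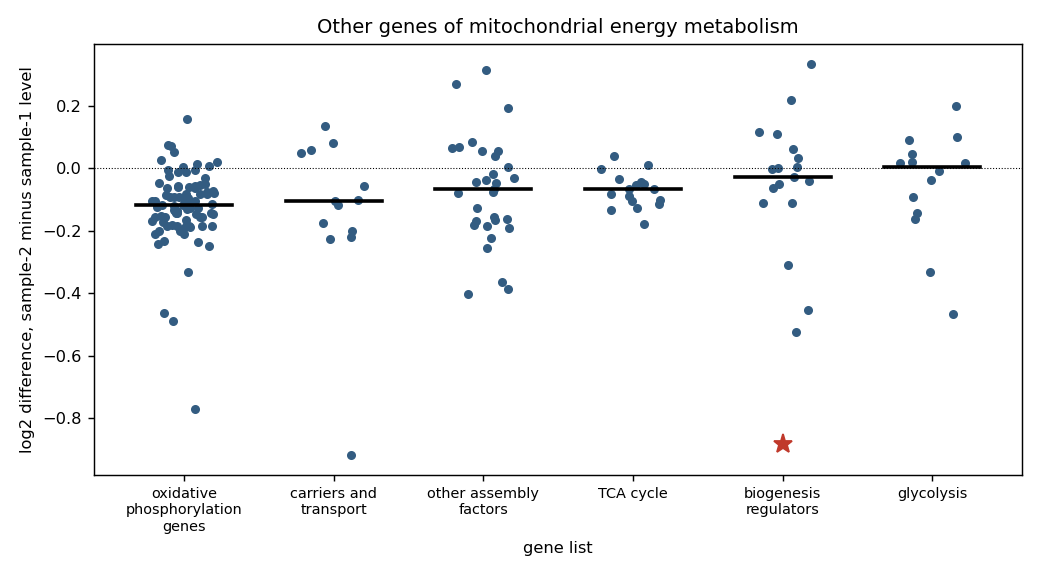
Fitted log2 difference, sample-2 minus sample-1 level, of each tested gene in 6 lists (points) with the median of each list (black lines). The star is Esrrg, the 1 gene of these lists past an adjusted p of 0.05, and the medians run from -0.12 for oxidative phosphorylation genes to 0.0042 for glycolysis.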

How the data were processed

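The arrays hybridised total RNA, and the authors deposited 1 intensity per probe set on a linear scale. The software behind these values is not given in the sources used here. Values were taken as log2(intensity + 16), computed here from the deposited intensity. The 64 control probe sets and those with a mean under the 40th percentile (an intensity of 14.3) were left out, leaving 27022. The sample-2 level was fitted against the sample-1 level with limma 3.58.1 under R 4.3.3, by lmFit and trended eBayes, with no covariate and 2 residual degrees of freedom, and p-values were adjusted (Benjamini-Hochberg) over all 27022. The fit was tested on simulated data. The number of arrays limits the precision.

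Probe sets were named by GEO's platform table where it gives 1 symbol. Genes named in the text are those past the threshold, the 2 highest and 2 lowest of each complex, tissue isoforms, Ndufs1, Ndufv1, Sdha to Sdhd, Uqcrc1, Uqcrfs1, Cox5a, Atp5a1 and Atp5b as core subunits, genes whose probe sets differed by more than 0.5, and members of the pathway lists past the threshold or, where none passed, the 2 with the largest difference. Marker and regulator genes beyond this rule illustrate their lists. The genes and lists were chosen with earlier results of these data known. Coordinates are those of the RefSeq promoter table. Alternatives were other pseudocounts, filters and scalings, the array number as a block, no trend, other choices of probe set and leaving out each array.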

Additional observations from a re-analysis of the deposited data

How the results depend on the processing

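The count of 0 genes past the threshold (limma) held under pseudocounts of 1 and 64, quantile normalization, median centring, no filter, the 60th percentile as filter, no intensity trend, and both other choices of probe set. With the replicate block 2 genes passed, Ndufa13 (adjusted p = 0.00835) and Cox6a2 (adjusted p = 0.0394), both lower. With 1 array left out the count ranged from 0 to 1, the 1 being Cox6a2 without sample-1 array 1. At an unadjusted p under 0.05 the count ranged from 2, without the trend or without sample-1 array 2, to 23. The median difference was -0.0754 without sample-1 array 2, ranged from -0.146 to that value with 1 array left out and kept its sign under every alternative run. The count of genes higher on both sample-2 arrays was 1 with median centring and 1 with the mean of probe sets. With 1 array left out it ranged from 2 to 8, but a level then held 1 array, so fewer values had to lie apart. The count of genes lower at the sample-2 level without overlap ranged from 52 to 76 over all 14 alternatives. No share of all genes was counted for these alternatives. With 1 array left out, the difference of Cox7a1 minus Cox7a2 ranged from -0.19 to 0.21 and that of Cox8b minus Cox8a from -1.11 to 0.32, so both changed sign. Cox8b could not be tested at the 60th percentile. Among the 40 named genes, 38 of 548 fitted differences changed sign without passing, in 18 genes. The replicate block changed no other call among these 40 genes, and Ckmt2 and Ppargc1a passed with it. The arrays share only a number, and the correlation of array 1 minus array 2 between levels was 0.03.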
